A study of Mus musculus with 10 samples.

Results

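The state reached when mouse mammary epithelial cells received both an siRNA against Irf1 and the cytokine TGFbeta was compared with that of cells that received neither. The compared libraries are 5 of the 10 in the study: 3 of cells with the Irf1 siRNA and TGFbeta, and 2 of cells with a control siRNA and no TGFbeta, chosen by the siRNA and the treatment time that their labels give. All were made from RNA of NMuMG/E9, a single subclone (Subclone 9) of a line grown from normal mouse mammary gland, transfected with siRNA at 20 nM and collected on day 3. The 4 groups are siIrf1 with TGFbeta at 2 ng/ml for 2 d ("both treatments", replicates 1, 2 and 3), siCtr with the same TGFbeta ("TGFbeta alone", replicates 2 and 3), siIrf1 without TGFbeta ("Irf1 siRNA alone", replicates 1, 2 and 3) and siCtr without TGFbeta ("untreated control", replicates 1 and 3). All cultures were thus transfected with an siRNA, and the control cells were untreated only in the sense that they had siCtr and no cytokine.

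Interferon regulatory factor 1 (Irf1) is a transcription factor that binds GAAA repeats in the promoters of interferon-stimulated and antigen presentation genes and keeps many of them active at a basal level. TGFbeta signals through receptor kinases and Smad proteins, and in NMuMG cells it sets off epithelial-mesenchymal transition (EMT), in which cells loosen their junctions, spread, deposit matrix and slow their division. The title of the series names Irf1 as a factor with a part both in the epithelial state and in EMT, and the comparison here asks what the cells look like once both treatments have acted.

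The libraries held 27547649 to 67301646 counts, and 13135 of 24454 genes passed the filter on low counts and were tested. Levels are CPM, counts scaled to a common effective library size, and changes are log2 fold changes ± standard error (SE) from edgeR's quasi-likelihood test over all 10 libraries, with p-values adjusted by Benjamini-Hochberg over all genes tested. "Rose", "fell" and "called" mean an adjusted p under 0.05. Nothing in the labels says that the libraries of a group came from separate cultures, so a p-value speaks only of the variation among these libraries, and that may be technical. In RNA from whole cultures, fewer cells of a kind and less RNA per cell cannot be told apart. Libraries within a group correlated at 0.971 to 0.995 in log CPM. Near-copies within families (the Gsta, Orm, Oas and H2 genes and Cyp21a1 among those named here) and genes that overlap others are uncertain, as the strand setting of the counting is not given in the sources used here.

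The libraries differed in the level of genes with a low GC content of the transcript relative to genes with a high one. This GC index (log2, quartile of lowest GC minus quartile of highest GC) was 0.7, -0.38 and 0.88 in replicates 1, 2 and 3 of both treatments, and -1.5 and -0.56 in replicates 1 and 3 of the untreated control. Replicate 2 of both treatments lay apart from the other 2 of its group and control replicate 1 lay lowest of all libraries, and the compared groups did not overlap. The index was -0.27 and -0.28 with TGFbeta alone, and 0.6, 0.06 and 0.79 with the Irf1 siRNA alone. The index moves with the comparison, so results below are also given after a trend with GC content and gene length was removed from each library ("GC trend removed"), and its part in the results was otherwise not tested.

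**Figure D1:**
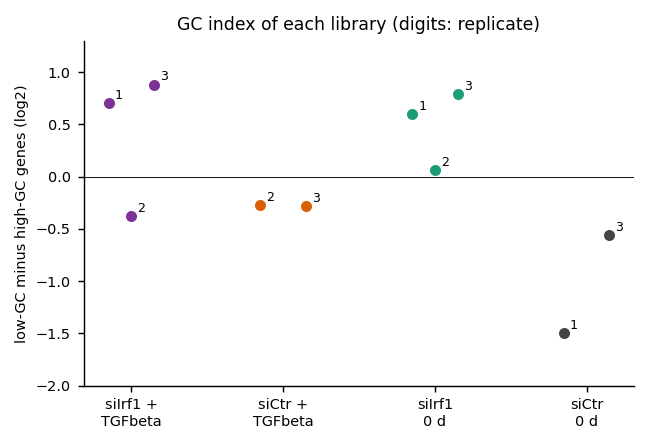
GC index of each library (vertical axis, log2 of low-GC over high-GC genes) by group, with 1 point per library and digits for the replicate. The 3 libraries of both treatments lie between -0.38 and 0.88, above the 2 untreated control libraries at -1.5 and -0.56.

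Irf1 itself (Entrez gene 16362, chr11:53770014-53778374 in GRCm38) was checked first. Its level was 36.5, 46.2 and 41.0 CPM after both treatments, 106 and 112 CPM after TGFbeta alone, 56.4, 64.1 and 57.7 CPM after the Irf1 siRNA alone, and 148 and 129 CPM in the untreated control. Each siIrf1 library was below each siCtr library, as the labels say, and a remainder of the mRNA was still counted. Against the control the change of Irf1 was -1.74 ± 0.153 (adjusted p = 2.73e-05), and its mean was the lowest of the 4 groups. It was also lower after both treatments than after the Irf1 siRNA alone (-0.53, adjusted p = 0.0211), while TGFbeta alone left it uncalled (-0.34, adjusted p = 0.146).

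After both treatments 5864 of 13135 genes (44.6%) were called against the untreated control, 3155 higher (24%) and 2709 lower (20.6%), and 3804 of them changed at least 2-fold. TGFbeta alone gave 4267 calls (32.5%) and the Irf1 siRNA alone 4175 (31.8%) against the same control libraries. Tested directly, both treatments differed from TGFbeta alone in 2365 genes (18%, with 9.72% higher and 8.28% lower) and from the Irf1 siRNA alone in 2799 (21.3%, with 11.6% higher and 9.71% lower). The effect of TGFbeta differed between the siRNAs in 541 genes (4.12%, with 2.8% higher and 1.32% lower in siIrf1 cells). The libraries of both treatments did not overlap those of the control for 7697 genes (58.6%). The main count rests in part on single libraries: it was 3460 without control replicate 1, 3564 in a fit of the compared groups alone, 5827 without control replicate 3, and 7197 without replicate 2 of both treatments. With control replicate 1 and replicate 2 of both treatments left out together it was 5971. The split between directions also moved: 53.8% of calls were higher in the main test, 63.3% without control replicate 3 (3691 higher and 2136 lower) and 44.4% with the GC trend removed (2967 higher and 3709 lower). Genes called higher had a median GC content of 44.3% and those called lower 52.7%, against 49.8% for all genes tested. After removal of the GC trend 2236 of the higher and 2383 of the lower calls kept their call and direction, and 59 and 0 were called in the opposite direction.

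A gene that missed the threshold is not thereby at its untreated level, so levels kept were counted by an interval. The 95% interval of the log2 fold change lay within 2-fold of the untreated control for 5076 genes (38.6%), of which 4538 were not called and 538 were called with a small change. For 2733 genes the change was neither called nor bounded within 2-fold. Of the 4538, 672 were called after TGFbeta alone, 644 after the Irf1 siRNA alone, and 3418 after neither. In 170 of them both single treatments were called, in opposite directions. With a margin of 1.5-fold the number within it fell to 1412.

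The 3 comparisons with the untreated control share its 2 libraries, so like directions among them are counted below but are not independent of each other. Of the 5864 genes called after both treatments, 1707 moved as after TGFbeta alone with the Irf1 siRNA alone not called (841 higher and 866 lower). A set of 1682 moved as after the siRNA alone with TGFbeta alone not called (1004 higher and 678 lower). Tested directly, 1176 of the 1707 differed from the siRNA alone and 628 of the 1682 from TGFbeta alone. Their median absolute change after the treatment not called was 0.36 and 0.51. The terms TGFbeta-like and siRNA-like below thus describe calls only. A further 1242 moved as after each single treatment. Only 13 were called against the direction of the one single treatment that was called, 5 against TGFbeta and 8 against the siRNA, and no gene was called opposite to both. Another 1034 genes were called after both treatments but after neither alone, with a median absolute change of 0.93. Their median absolute change was 0.57 after TGFbeta alone and 0.53 after the siRNA alone. Tested directly, 119 of them differed from TGFbeta alone and 176 from the siRNA alone, and the effect of TGFbeta differed between the siRNAs in 10. Most were thus not shown to be particular to the combination. The median GC content of the siRNA-like genes was 41.7% for higher and 54.1% for lower genes. With the GC trend removed, 1163 of these 1682 genes kept their call, as did 1513 of the 1707 TGFbeta-like genes, 1138 of the 1242 that moved as after each treatment and 630 of the 1034 called after neither alone.

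**Figure D2:**
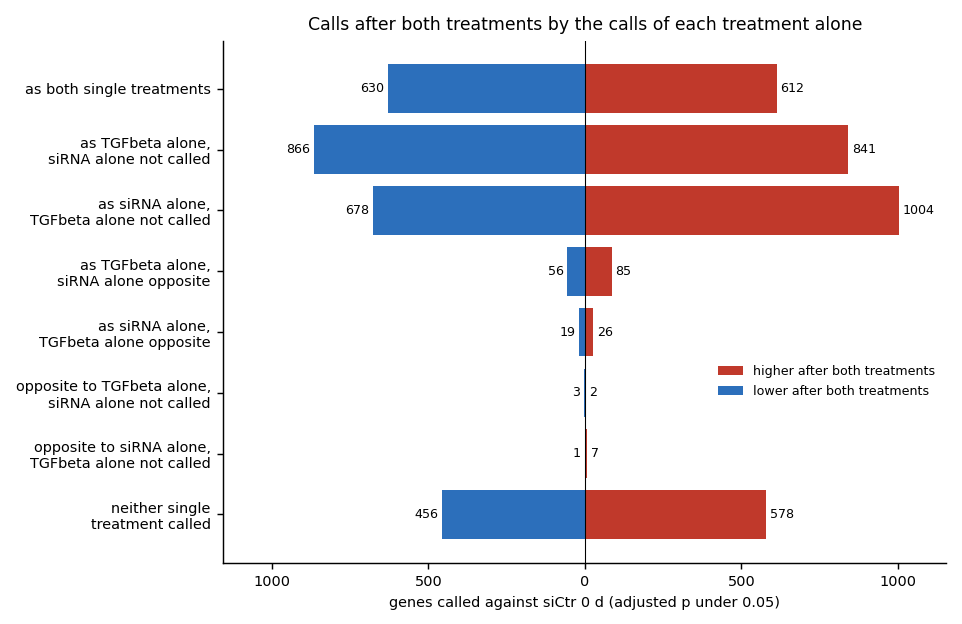
Number of genes called after both treatments, grouped by the calls of each single treatment (rows), with genes higher than the untreated control to the right and genes lower to the left. The TGFbeta-like (841 higher, 866 lower) and siRNA-like rows (1004 higher, 678 lower) are the longest, and the rows of opposite direction hold 5 and 8 genes.

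Where the single treatments moved a gene in opposite directions, most such genes were not called after both. Of 446 genes called in opposite directions by the single treatments, 141 were called as after TGFbeta alone, 45 as after the Irf1 siRNA alone, and 260 were not called. Of 1284 genes called in the same direction by each, 1242 were called that way after both, and 42 were not called. Without control replicate 1 the counts of 141, 45 and 1242 were 51, 16 and 377.

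**Figure D3:**
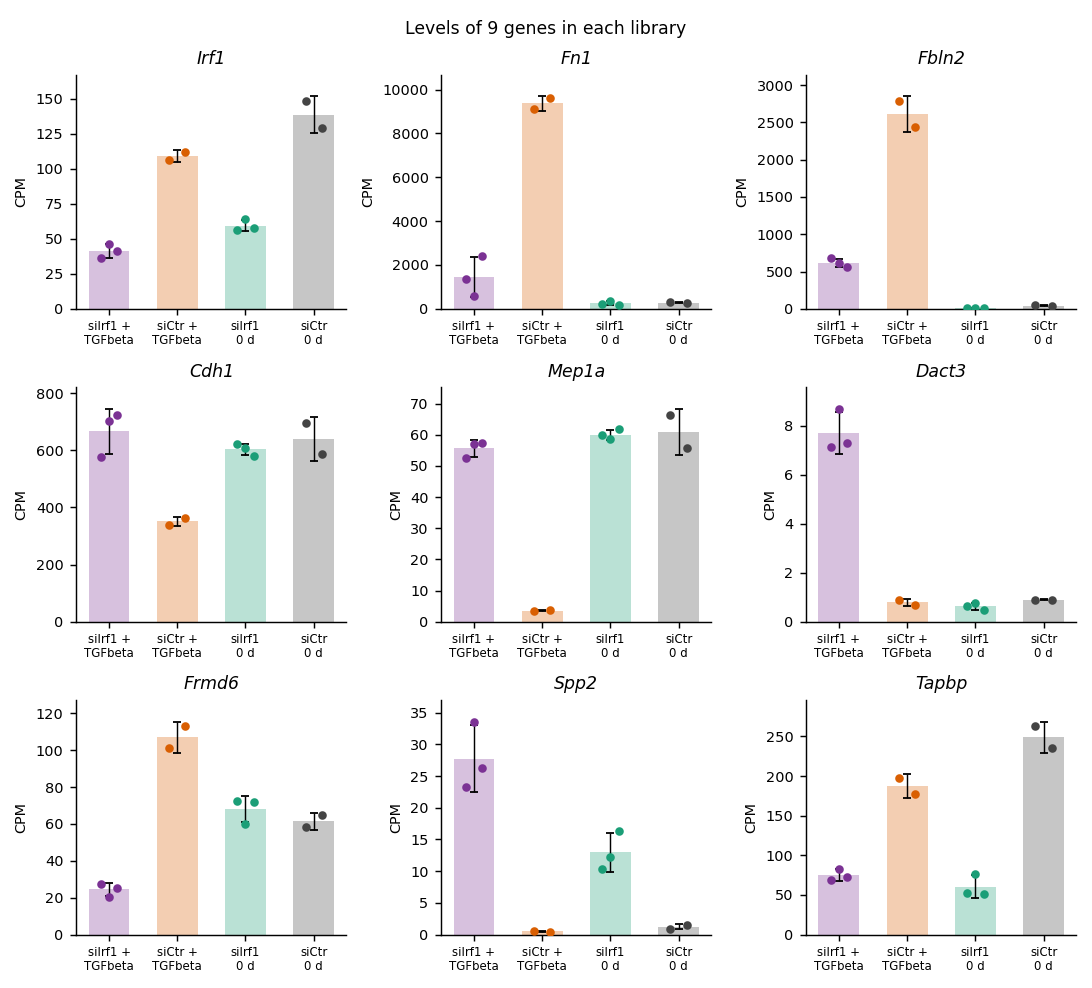
Expression of 9 genes, in CPM on linear axes that start at 0, where a point is a library, a bar the mean of its group and a whisker the SD (n = 3, 2, 3 and 2). Cdh1 and Mep1a after both treatments lie at the untreated control level, Fn1 and Fbln2 between control and TGFbeta alone, Tapbp near the Irf1 siRNA alone, and Dact3 above and Frmd6 below all other libraries.

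Of 28 epithelial junction and identity genes tested, 5 rose and 7 fell after both treatments, with a median change of 0.07 against 0.01 for all genes, and 13 lay within 2-fold of the control. Over all genes tested the shares were 24% higher, 20.6% lower and 38.6% within 2-fold, so these counts are near those of genes at large. The same shares stand beside the counts after both treatments in every list below. For TGFbeta alone the shares of all genes were 16.1% higher and 16.3% lower, and for the siRNA alone 16.3% and 15.5%. With the GC trend removed 2967 of the 13135 genes were higher and 3709 lower after both treatments. The counts of the epithelial list were 8 and 8 with the GC trend removed, 4 and 4 without control replicate 1, and 8 and 3 without control replicate 3. E-cadherin (Cdh1, chr8:106603350-106670247), the adhesion molecule of epithelial junctions, had 577, 702 and 722 CPM after both treatments, 339 and 363 CPM after TGFbeta alone, 621, 608 and 581 CPM after the Irf1 siRNA alone, and 694 and 586 CPM in the control. The libraries of both treatments overlapped those of the control (0.06, 95% interval -0.27 to 0.39) and all lay above those of TGFbeta alone (0.93 ± 0.152, adjusted p = 0.00295). The rise of TGFbeta alone in the simple-epithelial keratin Krt18 (0.95) was not seen with both: it had 4337, 4771 and 3191 CPM after both treatments and 4314 and 3486 CPM in the control (0.07, interval -0.33 to 0.48). Krt18 was called, at 0.43, with the GC trend removed.

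Some junction genes did depart. Occludin (Ocln), a tight junction membrane protein, had 14.8, 14.6 and 18.2 CPM after both treatments and 23 and 27.3 CPM in the control, a change of -0.67 ± 0.197 (adjusted p = 0.0202). This call was lost without control replicate 3 (-0.47) or replicate 1 of both treatments (-0.62), and the change was -1.77 with the GC trend removed. Larger falls were those of the tight junction gene Tjp3 (-2.62), the keratin Krt19 (-1.36) and the splicing regulator Esrp2 (-1.15), each still called without either control replicate. Krt19 had 884, 1397 and 568 CPM after both treatments, 332 and 282 CPM after TGFbeta alone, and 2412 and 2464 CPM in the control, below which all libraries of both treatments lay. The other 3 falls (-1.24 to -0.47) were not called without either control replicate. The tight junction gene Cldn4 went the other way, with 35.1, 42.8 and 26.3 CPM after both treatments and 0.0785 and 0.273 CPM in the control (7.53 ± 0.579, adjusted p = 1.66e-05), and so did the desmosomal plaque gene Pkp2 (1.10 ± 0.147, adjusted p = 3.28e-04). The other risers, named after their values were seen as are all genes given below as the few exceptions of a list, were Cldn6 (2.16), the desmoplakin gene Dsp (0.97) and the p120 catenin gene Ctnnd1 (0.62). Dsp was not called without control replicate 1 (0.52), and neither Dsp (0.65) nor Ctnnd1 (0.35) with the GC trend removed. The cells had no transcript counts for Cldn7 and 1 count for Epcam over all 10 libraries, so 2 usual epithelial markers were absent from this line, while Cdh1, Krt8 and Krt18 were abundant.

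Mesenchymal genes and EMT transcription factors stayed up in the presence of the Irf1 siRNA. Of 14 tested, 12 rose and 1 fell after both treatments (median 1.34), against 13 and 0 after TGFbeta alone (median 1.85) and 3 and 2 after the siRNA alone (median 0.25). In the direct test none was higher and 5 were lower after both treatments than after TGFbeta alone. The counts after both treatments were 11 and 1 with the GC trend removed. The repressor of Cdh1 transcription Snai1 had 5.87, 7.94 and 4.33 CPM after both treatments, 15 and 11.2 CPM after TGFbeta alone, and 0.353 and 0.152 CPM in the control (4.62 ± 0.430, adjusted p = 3.83e-05). Its 3 libraries lay well above the control and below both libraries of TGFbeta alone (-1.11 ± 0.295, adjusted p = 0.0261). N-cadherin (Cdh2), the cadherin of mesenchymal cells, took a similar middle place: 193, 122 and 201 CPM after both treatments, 336 and 329 CPM after TGFbeta alone, and 85.9 and 95.6 CPM in the control (0.92 ± 0.212, adjusted p = 0.00627). The intermediate filament gene Vim did not, with 2357, 2450 and 1725 CPM after both treatments and 1956 and 2050 CPM after TGFbeta alone, both groups above the control at 1212 and 989 CPM (0.98 ± 0.179, adjusted p = 0.00189). Zeb1, another repressor of epithelial genes, had 51.5, 21.6 and 48.1 CPM after both treatments and 5.34 and 15.5 CPM in the control (1.94 ± 0.473, adjusted p = 0.00869), and 2.98 without control replicate 3, 1.36 without control replicate 1 and 1.37 with the GC trend removed. The forkhead factor Foxf2 had 71.4, 74.8 and 71.9 CPM after both treatments, 59.2 and 60.2 CPM after TGFbeta alone, 9.29, 10.9 and 9.39 CPM after the siRNA alone, and 23.8 and 21.4 CPM in the control (1.69 ± 0.161, adjusted p = 4.37e-05). The difference of Foxf2 from TGFbeta alone was not called (0.29, adjusted p = 0.236). The 1 member that fell was the calcium-binding S100a4 (-1.13), which also fell after the siRNA alone (-1.87).

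Matrix genes showed the same shape at larger size. Of 24 tested, 18 rose and 4 fell after both treatments (median 1.51), and also 18 and 4 after TGFbeta alone (median 2.47), and in the direct test 0 were higher and 12 lower with both treatments. Their summed level was 5512 to 7731 CPM after both treatments, 20004 to 20312 CPM after TGFbeta alone and 2841 to 2894 CPM in the control. Much of the sum after TGFbeta alone was Fn1, at 9131 and 9615 CPM, so the lower sum after both treatments does not stand for every member. Fibronectin (Fn1, chr1:71585473-71653280), the matrix glycoprotein used as a standard EMT readout, had 1337, 589 and 2412 CPM after both treatments, 9131 and 9615 CPM after TGFbeta alone, 206, 360 and 186 CPM after the siRNA alone, and 290 and 270 CPM in the control. The 3 libraries of both treatments were spread widely, with replicate 2 lowest, yet all lay above the control (2.37 ± 0.521, adjusted p = 0.00537) and below TGFbeta alone (-2.70 ± 0.477, adjusted p = 0.00459). Fibulin 2 (Fbln2) had 676, 613 and 564 CPM after both treatments, 2784 and 2441 CPM after TGFbeta alone and 46.8 and 41.0 CPM in the control (3.82 ± 0.214, adjusted p = 3.10e-06), although the siRNA alone lowered it (-2.70). Collagen I (Col1a1) was not called against TGFbeta alone (-0.40, adjusted p = 0.381): it had 11.9, 11.6 and 10.7 CPM after both treatments, 18.3 and 11.7 CPM after TGFbeta alone, and 0.393 and 0.364 CPM in the control (4.90 ± 0.395, adjusted p = 1.75e-05). Those that fell included the laminin chain Lamc1 (-2.13), the crosslinking enzyme Loxl2 (-0.82) and the secreted protein Tgfbi (-3.24), and Loxl2 was not called without control replicate 3 (-0.50). Counts for the list were 18 and 4 with the GC trend removed as well.

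Of 23 genes of TGFbeta signalling, feedback and targets tested, 11 rose and 4 fell after both treatments (median 0.74) and 12 and 4 after TGFbeta alone (median 1.12). The inhibitory feedback gene Smad7 had 65.8, 76.5 and 59.9 CPM after both treatments, 60.8 and 53.4 CPM after TGFbeta alone, and 13.5 and 10.9 CPM in the control (2.46 ± 0.223, adjusted p = 3.17e-05), and its difference from TGFbeta alone was not called (0.24, adjusted p = 0.479). Another inhibitor of the pathway, Ldlrad4, rose by 2.91 ± 0.245 after both treatments and by 3.00 after TGFbeta alone. Ltbp1, which holds latent TGFbeta in the matrix, had 293, 267 and 341 CPM after both treatments, 656 and 636 CPM after TGFbeta alone, and 43.4 and 36.2 CPM in the control (2.92 ± 0.195, adjusted p = 6.38e-06). Among the receptors Tgfbr2 (-1.32) and the co-receptor Tgfbr3 (-2.15) fell, and Tgfbr1 rose (3.78, and 2.25 with the GC trend removed). Smad3 (-0.54) and Id2 (-0.83) were the other falls, the first not called without control replicate 1 (-0.36) and the second not without control replicate 3 (-0.08).

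Contractile and adhesion genes rose in large part. Of 10 smooth muscle contractile genes 7 rose and none fell after both treatments (median 2.20), and the count was the same with the GC trend removed. Transgelin (Tagln), an actin-binding protein of smooth muscle, had 27.7, 20.6 and 13.2 CPM after both treatments, 51.6 and 71.9 CPM after TGFbeta alone, 0.471, 0.701 and 0.633 CPM after the siRNA alone, and 0.0393 and 0.0303 CPM in the control. As the control held few counts of it, the fold is given from counts, at 600 with a 95% interval of 166 to 4961 that covers counting error only. Tropomyosin 1 (Tpm1) had 2402, 2433 and 1926 CPM after both treatments, 2263 and 2237 CPM after TGFbeta alone, and 619 and 513 CPM in the control (1.99 ± 0.164, adjusted p = 1.96e-05). Among 24 genes of focal adhesions and actin 12 rose and 2 fell, against 15 and 1 after TGFbeta alone and 2 and 8 after the siRNA alone. The actin crosslinker Actn1 (1.55 ± 0.170, adjusted p = 1.06e-04) and the integrin subunit Itgb3 (1.36 ± 0.160, adjusted p = 1.58e-04) rose but stayed below TGFbeta alone. Itgb3 had 132, 133 and 142 CPM after both treatments, 471 and 600 CPM after TGFbeta alone, and 57.9 and 48.0 CPM in the control. The 2 that fell were the laminin receptor subunit Itga3 (-1.10) and the tensin Tns1 (-1.14).

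Targets of the Hippo pathway, whose coactivator YAP responds to spreading and tension, rose in 6 of 12 cases and fell in 1 (median 1.04). The secreted Ccn2 had 2370, 2089 and 2498 CPM after both treatments, 2567 and 2831 CPM after TGFbeta alone, and 519 and 395 CPM in the control (2.34 ± 0.184, adjusted p = 1.52e-05). The kinase gene Lats2, which restrains YAP, went further than after either single treatment: 82.4, 78.1 and 91.4 CPM after both, 50.7 and 46.4 CPM after TGFbeta alone, 54.9, 51.0 and 56.6 CPM after the siRNA alone, and 23.7 and 30.8 CPM in the control (1.62 ± 0.175, adjusted p = 9.49e-05). Its 3 libraries lay above all others, and the direct tests were called against TGFbeta alone (0.79, adjusted p = 0.0102) and against the siRNA alone (0.63, adjusted p = 0.0114). The 1 fall was that of the phosphatase Ptpn14 (-0.75).

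**Figure D4:**
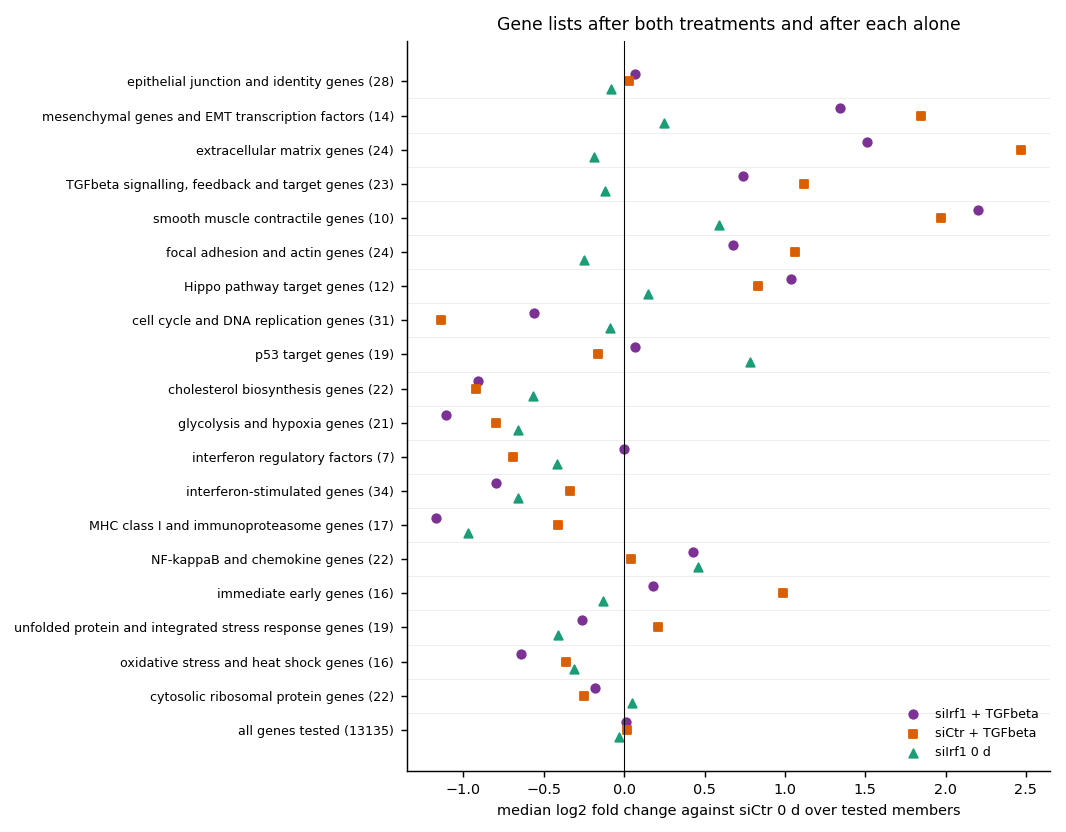
Median log2 fold change against the untreated control (horizontal axis) over the tested members of 19 gene lists and over all genes tested, after both treatments (circles), TGFbeta alone (squares) and the Irf1 siRNA alone (triangles). Matrix genes lie at 1.51 after both treatments and 2.47 after TGFbeta alone, glycolysis genes at -1.11 and MHC class I genes at -1.17 after both treatments, and all genes at 0.01.

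Most cell cycle and replication genes were lower after both treatments. Of 31 tested, 4 rose and 18 fell (median -0.56), against 0 and 23 after TGFbeta alone (median -1.14) and 4 and 3 after the siRNA alone (median -0.09). The direct test called 9 higher and 0 lower after both treatments than after TGFbeta alone. Without control replicate 1 the falls were 9. The mitotic kinase gene Aurkb had 57.5, 67.8 and 51.6 CPM after both treatments, 43.7 and 46.7 CPM after TGFbeta alone, 89.9, 97.7 and 83.8 CPM after the siRNA alone, and 171 and 135 CPM in the control (-1.37 ± 0.168, adjusted p = 1.97e-04). The risers were the mitotic checkpoint kinase Bub1 (2.61), the proliferation marker Mki67 (3.11), the topoisomerase Top2a (1.86) and cyclin Ccne2 (2.39), and each of these was called after the siRNA alone too. Without the GC trend they stood at 1.20, 2.49, 0.88 and 0.66, the last not called.

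The p53 targets had 9 of 19 members higher and 1 lower after both treatments, 1 and 1 after TGFbeta alone, and 8 and 0 after the siRNA alone. Their medians were 0.07, -0.16 and 0.78, so the median after both treatments was near the 0.01 of all genes. The counts after both treatments were 6 and 0 without control replicate 1, and 7 and 1 with the GC trend removed. The cell cycle inhibitor Cdkn1a (p21) had 311, 386 and 316 CPM after both treatments, 151 and 162 CPM after TGFbeta alone, 484, 527 and 491 CPM after the siRNA alone, and 255 and 185 CPM in the control. It thus lay above the control and TGFbeta alone and below the siRNA alone, and its call against the control (0.62 ± 0.172, adjusted p = 0.0156) was lost without control replicate 3 (0.48), while it was 0.94 with the GC trend removed. The membrane protein gene Perp, at 106, 106 and 132 CPM after both treatments, exceeded all 3 other groups, which had 36.4 and 38.7 CPM after TGFbeta alone, 88.5, 58.9 and 84.1 CPM after the siRNA alone and 47.8 and 42.4 CPM in the control (1.35 ± 0.208, adjusted p = 7.64e-04). Cyclin G1 (Ccng1) rose too (2.33 ± 0.319, adjusted p = 4.22e-04), and by 1.04 with the GC trend removed. The 1 fall, that of the apoptosis gene Bax (-0.61), was not called without either control replicate (-0.59 and -0.56) or with the GC trend removed (-0.29).

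Biosynthetic and energy genes fell after both treatments and after each alone. Of 22 cholesterol biosynthesis genes 15 fell and 1 rose (median -0.91), against 14 and 0 after TGFbeta alone and 12 and 2 after the siRNA alone, and the counts were 19 and 0 with the GC trend removed. The 1 riser, Hsd17b7 (0.46), was not called without either control replicate (0.47 and 0.51) or with the GC trend removed (-0.54). Farnesyl diphosphate synthase (Fdps) had 113, 150 and 155 CPM after both treatments and 461 and 361 CPM in the control (-1.56 ± 0.178, adjusted p = 1.29e-04). The mevalonate pathway kinase Pmvk had 16.7, 25 and 17.2 CPM after both treatments and 67.8 and 69.6 CPM in the control (-1.8 ± 0.209, adjusted p = 1.40e-04). Neither was called against TGFbeta alone (-0.25 and -0.19). Among 21 genes of glycolysis and the hypoxia response 16 fell and 1 rose (median -1.11), against 12 and 2 after TGFbeta alone (median -0.80) and 12 and 0 after the siRNA alone (median -0.66). Lactate dehydrogenase (Ldha) had 590, 704 and 500 CPM after both treatments, 823 and 872 CPM after TGFbeta alone, 1312, 1282 and 1343 CPM after the siRNA alone, and 2648 and 2157 CPM in the control (-2.01 ± 0.165, adjusted p = 1.97e-05). The glucose transporter Slc2a1 had 80.5, 112 and 83.2 CPM after both treatments, 164 and 158 CPM after TGFbeta alone, 116, 137 and 119 CPM after the siRNA alone, and 289 and 276 CPM in the control (-1.62 ± 0.168, adjusted p = 7.26e-05). The 1 riser was hexokinase Hk2 (1.13), which TGFbeta alone raised by 1.61.

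Of 16 oxidative stress and heat shock genes 8 fell and 1 rose after both treatments (median -0.64), against 5 and 3 after TGFbeta alone (median -0.36) and 5 and 1 after the siRNA alone (median -0.31). The glutathione synthesis gene Gclc had 105, 98.5 and 115 CPM after both treatments, 97.8 and 97.7 CPM after TGFbeta alone, 634, 525 and 654 CPM after the siRNA alone, and 690 and 656 CPM in the control (-2.66 ± 0.144, adjusted p = 3.10e-06). TGFbeta alone gave a fall of like size (-2.78) and the siRNA alone was not called. The pentose phosphate enzyme gene G6pdx fell after each treatment alone (-1.72 and -0.83) and was lower after both than after either (-2.40 ± 0.169, adjusted p = 8.18e-06). The 1 riser was the cytosolic chaperone Hsp90aa1 (2.64, and 1.91 with the GC trend removed). Of 19 unfolded protein and integrated stress response genes 4 rose and 6 fell, near the 24% and 20.6% of all genes tested, and 2 and 4 without control replicate 1. The integrated stress response factor Atf4 had 428, 482 and 410 CPM after both treatments and 1126 and 921 CPM in the control (-1.22 ± 0.145, adjusted p = 1.65e-04), and its target asparagine synthetase (Asns) fell too (-1.51 ± 0.167, adjusted p = 1.06e-04). The risers were the endoplasmic reticulum chaperones Hspa5 (0.79), Hsp90b1 (1.92) and Dnajc3 (1.46) and the degradation factor Edem1 (0.60). Hspa5 (0.44) and Edem1 (0.55) were not called without control replicate 1, and with the GC trend removed they stood at 0.50 and -0.04.

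Interferon and antigen presentation genes were mostly lower after both treatments, as they were after the Irf1 siRNA alone. Of 34 interferon-stimulated genes tested 5 rose and 16 fell after both treatments (median -0.80), against 2 and 9 after TGFbeta alone (median -0.34) and 4 and 18 after the siRNA alone (median -0.66). The counts were 1 and 21 with the GC trend removed. Of 17 MHC class I and immunoproteasome genes 3 rose and 10 fell (median -1.17), against 2 and 6 after TGFbeta alone (median -0.41) and 0 and 12 after the siRNA alone (median -0.97), and 1 and 11 with the GC trend removed. The tapasin gene Tapbp, which loads peptides onto class I molecules, had 68.7, 83.1 and 72.5 CPM after both treatments, 198 and 177 CPM after TGFbeta alone, 52.8, 76.9 and 51.1 CPM after the siRNA alone, and 263 and 235 CPM in the control (-1.73 ± 0.193, adjusted p = 1.11e-04). Its level overlapped that of the siRNA alone, and adding TGFbeta to the siRNA made no called difference (0.31, adjusted p = 0.264). The peptide transporter subunit Tap2 was much less abundant, with 0.62, 0.809 and 0.572 CPM after both treatments, 2.36 and 2.53 CPM after TGFbeta alone, 0.565, 0.882 and 0.659 CPM after the siRNA alone, and 4.32 and 5.79 CPM in the control (-2.89 ± 0.275, adjusted p = 4.29e-05). The secreted lectin-binding protein Lgals3bp followed the siRNA in the same way (-2.13 ± 0.165 after both, -2.20 after the siRNA alone and -1 after TGFbeta alone). The antiviral synthetase Oas1a had 5.61, 5.93 and 5.27 CPM after both treatments, 6.01 and 6.49 CPM after TGFbeta alone, 9.54, 10.2 and 9.29 CPM after the siRNA alone, and 17.3 and 16.1 CPM in the control (-1.57 ± 0.175, adjusted p = 1.11e-04).

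Since Irf1 is known to bind GAAA repeats, the start regions of these genes were searched for GAAANNGAAA on both strands, in RefSeq windows (GRCm38.p6) from 250 bases before to 50 bases after the start. It was held by 3.44% of all 32851 windows and by 3.7% of the 10338 tested genes with a window. Of the 51 tested members of the interferon and MHC class I lists 40 had a window, and 16 of these held the motif. Among those 16, 7 fell and 2 rose after both treatments, and among the 24 without it 14 fell and 6 rose, so 7 of 16 with the motif fell against 14 of 24 without it. A match is a description of the letters and not evidence of binding. The windows of 3 genes, chosen after the values were seen to show the motif in a ubiquitin-like effector, an antiviral enzyme and an immunoproteasome activator that all fell, are printed 5′ to 3′ on the gene's strand with the motif matches in capitals. In Isg15 the 3 matches overlap each other and in Oas1a the 2 matches do. In Psme1 the match reads on the opposite strand and lies after the start. They are at chr4:156200769-156201068 (minus strand), chr5:120907476-120907775 (minus strand) and chr14:55578244-55578543 (plus strand), in the order Isg15, Oas1a and Psme1.
Isg15: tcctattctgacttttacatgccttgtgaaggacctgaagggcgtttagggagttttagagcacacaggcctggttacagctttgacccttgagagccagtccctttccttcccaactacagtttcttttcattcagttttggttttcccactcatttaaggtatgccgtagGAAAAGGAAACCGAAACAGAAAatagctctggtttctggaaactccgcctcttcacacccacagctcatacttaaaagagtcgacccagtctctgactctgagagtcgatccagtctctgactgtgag
Oas1a: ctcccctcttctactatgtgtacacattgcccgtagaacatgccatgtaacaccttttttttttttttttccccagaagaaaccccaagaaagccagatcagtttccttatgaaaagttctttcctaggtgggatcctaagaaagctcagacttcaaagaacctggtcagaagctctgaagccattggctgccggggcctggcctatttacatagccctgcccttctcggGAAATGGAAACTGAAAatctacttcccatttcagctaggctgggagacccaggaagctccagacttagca
Psme1: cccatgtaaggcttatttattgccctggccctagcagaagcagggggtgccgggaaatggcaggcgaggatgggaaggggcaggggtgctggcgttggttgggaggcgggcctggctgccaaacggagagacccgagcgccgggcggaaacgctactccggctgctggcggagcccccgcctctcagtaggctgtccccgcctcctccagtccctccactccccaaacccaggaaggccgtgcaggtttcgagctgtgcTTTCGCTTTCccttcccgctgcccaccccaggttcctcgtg

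Isg15, a ubiquitin-like protein attached to others in the antiviral response, had 0.561, 0.491 and 0.331 CPM after both treatments, 2.36 and 2.23 CPM after TGFbeta alone, 0.345, 0.543 and 0.422 CPM after the siRNA alone, and 2.47 and 2.18 CPM in the control (-2.32 ± 0.290, adjusted p = 2.25e-04). Psme1, a subunit of the proteasome activator PA28, had 28.7, 37.4 and 30.1 CPM after both treatments, 52.5 and 53.5 CPM after TGFbeta alone, 30.6, 42.0 and 31.8 CPM after the siRNA alone, and 83.4 and 71.3 CPM in the control (-1.27 ± 0.192, adjusted p = 6.82e-04). In both genes the libraries of both treatments and of the siRNA alone interleaved, below all libraries with siCtr. The class I light chain B2m was among the risers instead, with 119, 68.8 and 125 CPM after both treatments, 165 and 172 CPM after TGFbeta alone and 29.9 and 67.9 CPM in the control (1.09 ± 0.345, adjusted p = 0.0275), a call lost without control replicate 1 (0.61) and with the GC trend removed (0.16). The other MHC class I risers were the chaperones Pdia3 (0.80) and Canx (1.28), each not called without control replicate 1 (0.58 and 0.67), and Canx not with the GC trend removed (0.14). The interferon-stimulated risers were Ifit2 (1.45), Oasl2 (2.56), Samd9l (3.03), Eif2ak2 (1.39) and Herc6 (1.60), of which Oasl2 alone was still called with the GC trend removed (2.71). Among 7 interferon regulatory factors Irf7 (-2.69 ± 0.264, adjusted p = 5.18e-05) and Irf2 (-1.16) fell beside Irf1, and Irf8 rose (1.14), a call lost without control replicate 3 (0.91) or replicate 2 of both treatments (0.78).

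Inflammatory genes moved in both directions. Of 22 NF-kappaB and chemokine genes 11 rose and 5 fell (median 0.43), against 5 and 7 after TGFbeta alone and 8 and 5 after the siRNA alone, and 7 rose without control replicate 1. Over all genes tested 24% rose and 20.6% fell, so the falls in this list are near the share of genes at large. The adhesion receptor Vcam1 is one that the single treatments moved apart: it had 20.4, 18.8 and 29.6 CPM after both treatments, 1.79 and 3.13 CPM after TGFbeta alone, 14.2, 13.5 and 15.9 CPM after the siRNA alone, and 5.18 and 6.34 CPM in the control (1.99 ± 0.300, adjusted p = 6.64e-04). Its 3 libraries of both treatments lay above all others, but the direct test against the siRNA alone was not called (0.66, adjusted p = 0.089). Against the control Vcam1 was not called with the GC trend removed (0.62). All 5 falls were secreted factors: the chemokines Cxcl5 (-4.13 ± 0.340, adjusted p = 2.14e-05), Cxcl1 (-2.19) and Ccl20 (-1.39, and -0.66, not called, without control replicate 3), the iron-binding Lcn2 (-2.51 ± 0.210, adjusted p = 2.14e-05) and the acute-phase protein Saa3, which had 2 counts in all after both treatments. Lcn2 had 2.66, 3.45 and 2.80 CPM after both treatments, 1.62 and 1.40 CPM after TGFbeta alone, 9.45, 7.42 and 8.15 CPM after the siRNA alone, and 17.9 and 16.2 CPM in the control. Of 16 immediate early genes 7 rose and 2 fell. The AP-1 subunit Fos rose after each treatment alone (2.02 with TGFbeta and 1.85 with the siRNA) and after both, with 9.36, 8.21 and 6.56 CPM after both treatments and 1.57 and 1.21 CPM in the control (2.54 ± 0.271, adjusted p = 9.05e-05). It was not called against TGFbeta alone (0.51, adjusted p = 0.173). Its relative Fosl1 fell with the siRNA whether or not TGFbeta was given, with 4.49, 3.48 and 2.98 CPM after both treatments, 25.7 and 22.2 CPM after TGFbeta alone, 4.99, 5.97 and 3.56 CPM after the siRNA alone, and 28.9 and 27.9 CPM in the control (-2.96 ± 0.257, adjusted p = 2.61e-05). The other fall, of Egr1 (-0.99), was not called without either control replicate (-1.11 and -0.80), without replicate 2 of both treatments (-0.73) or with the GC trend removed (-0.75).

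Among cytosolic ribosomal protein genes 18 of 22 lay within 2-fold of the control, with 2 higher (Rpl5 and Rpl7), 1 lower (Rpl10a) and a median of -0.18. Without replicate 2 of both treatments 1 was higher and 6 were lower. With the GC trend removed 4 were higher, none lower and the median was 0.18. Rpl5 then stood at -0.02 and Rpl10a at -0.06, and neither kept its call without control replicate 1 (0.40 and -0.30), nor did Rpl7 (0.34). Markers of other cell types gave no single picture. Of 8 fibroblast and pericyte markers 3 were tested and all rose (Pdgfra, Pdgfrb and Dcn), while Lum, Thy1 and Fap were at 0 counts in all libraries. Their summed level was 15.2 to 20.7 CPM after both treatments, 20.6 to 22.7 CPM after TGFbeta alone and 0.0606 to 0.196 CPM in the control. Most of this sum was Pdgfrb, at 13.8, 17.6 and 19 CPM after both treatments. Dcn had 0.827, 0.332 and 1.08 CPM after both treatments and 0.408, 0.384 and 0.58 CPM after the siRNA alone. It had no count after TGFbeta alone or in the control. Pdgfra (2.23) was not called without control replicate 3 (1.62). Of 7 endothelial markers 2 were tested. Cdh5 rose, from few counts (ratio 46.3, interval 12.7 to 385), and Vwf, at most 0.833 CPM in any library, was not called. In the direct test these 2 were lower after both treatments than after TGFbeta alone. Cldn5 and Emcn were at 0. The immune markers Adgre1, Cd3e and Tyrobp were at 0, and Ptprc and Cd68 were tested and not called. The immune marker Csf1r rose (0.66 ± 0.209, adjusted p = 0.0275), a call lost without control replicate 1 (0.44) or replicate 3 of both treatments (0.51). The adipocyte marker Cidec rose (1.20), not called without either control replicate (1.42 and 1.08), and Plin1 was at 0. Of 3 luminal markers tested the keratin Krt7 rose (1.56 ± 0.258, adjusted p = 0.00117), and Areg and Gata3 were not called. The receptors Esr1 and Pgr and the milk genes Csn2 and Wap were at 0. Of the basal keratins Krt5 fell (-1.94 ± 0.342, adjusted p = 0.00165), and Krt14 (2.29) and Krt17 (at least 4.86-fold) rose.

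The largest rises were those of genes close to absent in untreated cells, and all of them rose after TGFbeta alone as well. The receptor of pericytes and fibroblasts Pdgfrb had 13.8, 17.6 and 19.0 CPM after both treatments, 19.9 and 21.5 CPM after TGFbeta alone, 0.0628, 0.0226 and 0.0264 CPM after the siRNA alone and no count in the control, and was at least 331-fold higher by a floor of 3 counts over the control group. Lrp4, a co-receptor best known at the neuromuscular synapse, was at least 134-fold higher. Neither differed detectably from TGFbeta alone (-0.30, adjusted p = 0.423 and 0.33, adjusted p = 0.433). The cysteine protease Ctsw, best known from cytotoxic lymphocytes, had 72.9, 75.8 and 68.2 CPM after both treatments, 212 and 225 CPM after TGFbeta alone, and 0.0393 and 0.121 CPM in the control (9.68 ± 0.388, adjusted p = 2.50e-06). Count ratios for others, with intervals for counting error, were 409 (73.2 to 16161) for the apoptosis inhibitor Birc7, 351 (62.9 to 13891) for Tmem119 and 261 (72.1 to 2157) for the peptide hormone gene Uts2b. Tmem119 stayed below TGFbeta alone, at 5.58, 7.30 and 3.76 CPM against 24.7 and 26.4 CPM.

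The largest falls were also shared with TGFbeta alone. They included 4 neighbouring genes on chromosome 9 of the glutathione transferase alpha family, Gsta1 (-6.39 ± 0.358), Gsta2 (-6.22 ± 0.379), Gm3776 (-6.30 ± 0.539) and Gm10639 (-6.14 ± 0.325), which are near-copies, so that the counting could split their reads. Gsta1 had 0.384, 0.202 and 0.241 CPM after both treatments, 0.279 and 0.266 CPM after TGFbeta alone, 14.2, 8.41 and 8.86 CPM after the siRNA alone, and 25.6 and 19.3 CPM in the control. The surfactant protein Sftpd (-5.62 ± 0.347, adjusted p = 4.09e-06), the pantetheinase Vnn3 (-5.74 ± 0.302, adjusted p = 3.10e-06) and Ttc36 (-6.14 ± 0.328, adjusted p = 3.10e-06) fell to a like degree. The anion exchanger Slc4a1 had 0.118, 0.130 and 0.120 CPM after both treatments, 15.2, 20.1 and 19.4 CPM after the siRNA alone and 10.4 and 10.7 CPM in the control (-6.38 ± 0.269, adjusted p = 2.64e-06), and it had no count after TGFbeta alone, so a trace remained with the siRNA present.

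Genes called after 1 treatment alone and counted as back at the control level after both numbered 348 for TGFbeta alone and 330 for the siRNA alone. They were counted where the interval lay within 2-fold of the control, the main comparison was not called and the direct test against the single treatment was called. Their median absolute change after that single treatment was 1.12 and 0.88. By estimate, most of the 330 were thus within 2-fold of the control after the siRNA alone as well. With a margin of 1.5-fold the numbers were 122 and 130. One of those named is the membrane metalloprotease Mep1a (chr17:43474324-43504143), which had 52.6, 57.1 and 57.3 CPM after both treatments, 3.37 and 3.76 CPM after TGFbeta alone, 59.8, 58.5 and 61.7 CPM after the siRNA alone, and 66.2 and 55.7 CPM in the control. The fall of TGFbeta alone (-4.10) was thus not seen with the siRNA present (-0.13, interval -0.46 to 0.21), and the difference between both treatments and TGFbeta alone was 3.97 ± 0.184 (adjusted p = 1.06e-05).

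In other genes of this kind the single treatments pulled in opposite directions and the net level came to lie between them. The retinal dehydrogenase Aldh1a1 had 66.1, 73.6 and 109 CPM after both treatments, 2.53 and 2.46 CPM after TGFbeta alone, 469, 412 and 598 CPM after the siRNA alone, and 95.9 and 112 CPM in the control (-0.33, interval -0.84 to 0.18). It was called lower with the GC trend removed (-0.48) and without replicate 3 of both treatments (-0.57). The LIM protein Fhl1 had 14.9, 17.2 and 16.9 CPM after both treatments, 1.10 and 1.5 CPM after TGFbeta alone, 24.8, 26.2 and 33.6 CPM after the siRNA alone, and 15 and 16.0 CPM in the control (0.07, interval -0.39 to 0.54). The acute-phase genes Orm1 (0.25) and Orm3 (0.23), near-copies of each other, behaved alike, with 3.18 and 2.79 after TGFbeta alone and -3.82 and -2.62 after the siRNA alone, and Orm1 was called with the GC trend removed (0.65). The aldo-keto reductase Akr1b7 (0.04, against 3.53 after the siRNA alone) and the focal adhesion gene Tns4 (-0.36, against -2.48 after the siRNA alone) were also among them. The libraries of Tns4 after both treatments, at 9, 9.21 and 13.1 CPM, all lay below the control at 13.4 and 13.4 CPM.

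**Figure D5:**
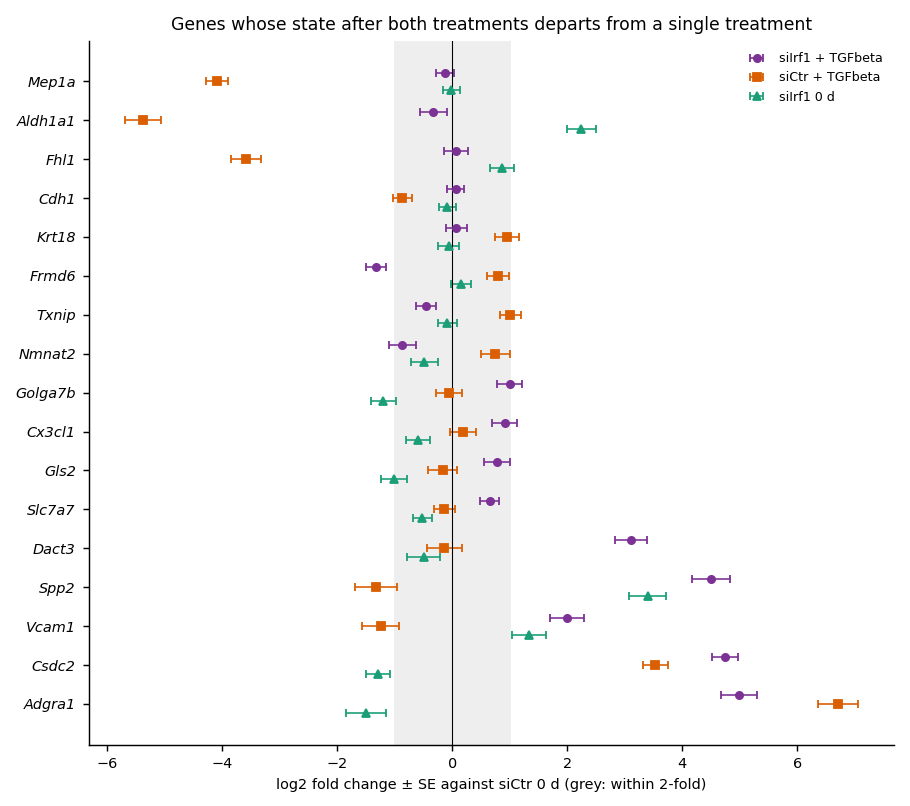
Log2 fold change ± SE against the untreated control (horizontal axis) of 17 genes after both treatments (circles), TGFbeta alone (squares) and the Irf1 siRNA alone (triangles), with the range within 2-fold shaded. Mep1a, Aldh1a1, Fhl1, Cdh1 and Krt18 lie within the shaded range after both treatments (-0.33 to 0.07), and Frmd6 (-1.33) and Dact3 (3.11) lie outside the values of both single treatments.

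When the opposed genes did leave the control level, the net direction followed TGFbeta in some and the siRNA in others. Csdc2, an RNA-binding protein gene, had 42.4, 45.6 and 39.0 CPM after both treatments, 19.4 and 17.0 CPM after TGFbeta alone, 0.628, 0.679 and 0.607 CPM after the siRNA alone, and 1.73 and 1.42 CPM in the control (4.75 ± 0.226, adjusted p = 2.64e-06). It was higher with both treatments than with TGFbeta alone (1.22, adjusted p = 0.00186), although the siRNA alone lowered it. The adhesion receptor Adgra1 did the reverse, at 21.7, 24.1 and 17.2 CPM after both treatments and 71.6 and 67.3 CPM after TGFbeta alone (4.99 ± 0.316 against the control, adjusted p = 4.96e-06). The steroid hydroxylase Cyp21a1 was not called against TGFbeta alone (0.03), with 25.6, 34.7 and 22.2 CPM after both treatments and 27.7 and 26.1 CPM after TGFbeta alone, although after the siRNA alone it was at 0.0628 CPM or less, below the control at 1.45 and 1.42 CPM (4.25 ± 0.365 against the control, adjusted p = 2.61e-05). The secreted phosphoprotein gene Spp2 followed the siRNA and was higher than with the siRNA alone (1.10, adjusted p = 0.0077), with 23.3, 33.6 and 26.3 CPM after both treatments, 0.502 and 0.466 CPM after TGFbeta alone, 10.4, 12.2 and 16.4 CPM after the siRNA alone, and 0.942 and 1.49 CPM in the control (4.50 ± 0.337, adjusted p = 1.19e-05). Also on the side of the siRNA were the scaffold Pdzk1 (2.72 ± 0.421, adjusted p = 7.65e-04) and regucalcin (Rgn, 1.99 ± 0.420, adjusted p = 0.00417, and 1.10 with the GC trend removed), each below the siRNA alone.

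Departures against a single treatment were few. The FERM domain gene Frmd6 (chr12:70825456-70902234) had 27.5, 20.6 and 25.4 CPM after both treatments, 101 and 113 CPM after TGFbeta alone, 72.3, 59.9 and 71.9 CPM after the siRNA alone, and 58.1 and 64.6 CPM in the control. Its 3 libraries lay below all 7 others, and it fell against the control (-1.33 ± 0.173, adjusted p = 2.85e-04) where TGFbeta alone had raised it (0.80, adjusted p = 0.00959). The thioredoxin inhibitor Txnip (-0.46 after both, 1.01 after TGFbeta alone) and the NAD synthesis gene Nmnat2 (-0.87, against 0.75) had the same pattern with calls that did not last: Nmnat2 was not called without control replicate 1 (-0.65), and Txnip not with RLE size factors (-0.43), with the GC trend removed (-0.32) or without 1 of several single libraries (-0.37 to -0.46). Against the direction of the siRNA went Golga7b (1.00 ± 0.217, adjusted p = 0.00462, and -1.20 after the siRNA alone) and the chemokine Cx3cl1. Cx3cl1 had 54.6, 67.2 and 61.9 CPM after both treatments, 40.5 and 34.0 CPM after TGFbeta alone, 17.8, 27.1 and 19.5 CPM after the siRNA alone, and 31.9 and 33.3 CPM in the control (0.91 ± 0.213, adjusted p = 0.00679). The glutaminase Gls2 (0.78) and the amino acid transporter Slc7a7 (0.65) did likewise, but were not called without control replicate 3 (0.59 and 0.58).

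Of the genes called after both treatments and after neither alone, Dact3, a regulator of Wnt signalling, had 7.14, 8.69 and 7.28 CPM after both treatments, 0.893 and 0.699 CPM after TGFbeta alone, 0.628, 0.769 and 0.475 CPM after the siRNA alone, and 0.903 and 0.879 CPM in the control (3.11 ± 0.283, adjusted p = 3.28e-05). All 3 libraries of both treatments lay above every other library, and the change was 3.25 with the GC trend removed. The other named genes of this kind had a wider spread, and none was called in the direct tests against either single treatment. The zinc finger gene Zbtb26 had 12.9, 3.34 and 14.6 CPM after both treatments, 6.55 and 3.46 CPM after TGFbeta alone, 6.34, 4.00 and 8.41 CPM after the siRNA alone, and 0.707 and 2.39 CPM in the control (2.69 ± 0.727, adjusted p = 0.0140), a call lost without control replicate 1 (2.07) and with the GC trend removed (0.98). Zfp429 (2.49 ± 0.656, adjusted p = 0.0125) was not called without control replicate 1 (1.81), was at 4.03 without control replicate 3 and at 1.48 with the GC trend removed, and Aff2 (2.44 ± 0.594, adjusted p = 0.00882) was at 3.84 without control replicate 3. Several of the largest siRNA-like rises were smaller with the GC trend removed: Cep290, Atrx and Fam199x rose by 5.48 ± 0.857, 4.60 ± 0.630 and 4.46 ± 0.604, and by 3.62, 2.70 and 2.50 with the GC trend removed. The complement gene C9 rose by 4.88 ± 0.438, and by 4.24 with the GC trend removed, and had 5.28, 4.00 and 5.96 CPM after both treatments, 0.0558 and 0.133 CPM after TGFbeta alone, 2.39, 2.67 and 2.66 CPM after the siRNA alone, and 0.0785 and 0.243 CPM in the control.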

How the data were processed

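RNA-seq libraries of siRNA-transfected NMuMG/E9 cells were made from total RNA with a stranded kit, per the labels' protocols, and the submitters' processing notes name STAR and mm10 (GRCm38). The deposited table holds raw read counts per gene as the authors counted them. For the counting program and its strand setting the labels give nothing. Groups were taken from the labels. Counts were tested with edgeR 4.0.16 (R 4.3.3) by its quasi-likelihood test after filterByExpr and TMM scaling, in 1 model of the 10 libraries that has a coefficient for each group, and adjusted by Benjamini-Hochberg at 0.05. The residual degrees of freedom were 6. Library totals ran from 27547649 to 67301646 counts, and floors and count ratios cover counting error only. The test was checked on simulated counts. A level counted as within 2-fold when the 95% interval of its change did. Gene IDs were matched to RefSeq symbols for 24374 of 24454 rows and to GENCODE for 7, and 73 unmatched rows held 0.211 to 1.5% of counts.

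The members and gene lists were chosen with earlier results of these data known. Genes were named by rule: Irf1, the 8 largest rises and falls with at least 5 CPM and no overlap, the 2 called members of each list with the smallest adjusted p, 12 EMT and interferon genes whatever their p, and 4 genes per net pattern. Some genes that the rule names are not reported here. Others are named as exceptions of a list and were chosen after their values were seen. The titles give each replicate number a further tag shared across groups, whose meaning they do not state, and the main test does not use it. Alternatives were RLE scaling, other filters, DESeq2 1.42.0, a replicate block, a fit of the compared groups alone, a margin of 1.5-fold, leaving out each library and removing a trend with GC content and length. Leaving out replicate 2 of both treatments together with control replicate 1 was added after seeing the data.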

Additional observations from a re-analysis of the deposited data

Results flagged for a closer look

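For 29 of the named genes reported here the effect of TGFbeta in cells with the Irf1 siRNA differed from its effect in cells with the control siRNA, by the interaction term of edgeR's quasi-likelihood test (Benjamini-Hochberg over all genes tested, where 541 of 13135, or 4.12%, were called). Several of these genes, such as Mep1a, Frmd6 and Dact3, were named for a net pattern, which rests on contrasts of the same libraries. The number 29 thus cannot be read against the share of 4.12%. Values are the log2 effect of TGFbeta with siIrf1 minus its effect with siCtr.

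In 5 of these genes TGFbeta had a smaller inducing effect with siIrf1: the actin-binding Tagln (-5.62) and the tropomyosin Tpm1 (-0.97), the integrin Itgb3 (-0.96), the keratin Krt7 (-1.91) and Klhl30 (-3.61). The siRNA alone had raised Tagln (4.03), Klhl30 (2.21) and Tpm1 (0.97), lowered Itgb3 (-1.02) and left Krt7 uncalled (0.69). After both treatments Tpm1 was at the level of TGFbeta alone (0.00 in the direct test), and the other genes of these 5 were called lower. The complement factor I gene Cfi (-5.76) rose with TGFbeta in siCtr cells by 6.01 and changed by 0.25 in siIrf1 cells. The siRNA alone had already raised it by 6.18, and the control held only 6 counts of it. Cfi had 7.65, 8.5 and 10.8 CPM after both treatments, and 6.59 and 6.89 CPM after TGFbeta alone. Krt17 (-7.74) and Slc4a1 (4.54) have a group without counts, so their values depend on the prior count and Tagln rests on few control counts.

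TGFbeta had a smaller lowering effect with siIrf1 for the mitotic kinase Aurkb (1.14), Lcn2 (2.00), the retinal dehydrogenase Aldh1a1 (2.81), Fhl1 (2.80) and Mep1a (3.99), the last with a change of -0.11 in siIrf1 cells. It was called in opposite directions in the siRNA groups for Spp2 (2.42) and Frmd6 (-2.28). For Cidec (2.36), Vcam1 (1.91), Txnip (-1.38), Cdh1 (1.01) and Lgals3bp (1.06) the estimates differed in sign, but only 1 of the 2 effects was called: that in siIrf1 cells for Cidec and that in siCtr cells for the others. For Foxf2 (1.48), Csdc2 (2.51) and Cyp21a1 (5.26) the rise was larger with siIrf1. It began from levels that the siRNA alone had lowered (-1.19, -1.29 and -5.22). After both treatments Foxf2 (0.29) and Cyp21a1 (0.03) were not called against TGFbeta alone, and Csdc2 was higher (1.22). For Dact3 (3.76), Golga7b (2.26), Gls2 (1.96), Slc7a7 (1.31) and Cx3cl1 (1.32) TGFbeta raised the level in siIrf1 cells and was not called in siCtr cells. The fall of Akr1b7 was larger with siIrf1 (-2.12), from a level that the siRNA alone had raised (3.53). After both treatments Akr1b7 was higher than after TGFbeta alone (1.41).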

How the results depend on the processing

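The count of 5864 calls stayed within 1.5 times under RLE scaling, either other filter, DESeq2, the replicate block and removal of the GC trend, and fell to 3564 (1925 higher, 1639 lower) in a fit of the compared groups alone. Leaving out each library in turn gave 3460 to 7197 calls, 1853 to 3784 higher and 1607 to 3413 lower, and 3548 to 5165 genes within 2-fold. The same left 2297 to 5159 calls for TGFbeta alone, 1700 to 5192 for the siRNA alone, 762 to 2978 for both treatments against TGFbeta alone and 1957 to 3300 against the siRNA alone. For the net patterns it gave 377 to 2364 genes as both single treatments, 1156 to 1907 as TGFbeta and 806 to 1905 as the siRNA with the other not called, 51 to 167 as TGFbeta and 14 to 51 as the siRNA with the other opposite, 2 to 9 opposite to TGFbeta, 2 to 12 opposite to the siRNA, 0 to 0 opposite to both, 494 to 1584 with neither called, and 134 to 386 and 104 to 386 back at the control level after TGFbeta and after the siRNA. With the GC trend removed, both treatments differed from TGFbeta alone in 3597 genes and from the siRNA alone in 4375, and the patterns held 76 genes as the siRNA with TGFbeta opposite, 21 opposite to TGFbeta, 13 opposite to the siRNA, 2 opposite to both, and 669 and 548 back at the control level. With the GC trend removed and the replicate block these were 4353 against the siRNA alone, 20 opposite to TGFbeta, 2 opposite to both, and 619 and 545 back. DESeq2 gave 1864 genes as both single treatments, 14 opposite to TGFbeta and 1 opposite to both, RLE scaling 1 opposite to both, and no filter 4 opposite to the siRNA. Without replicate 2 of both treatments and control replicate 1, chosen after seeing the data, 4897 and 4873 genes differed from TGFbeta alone and from the siRNA alone, 5 were opposite to the siRNA and 1604 had neither called. A margin of 1.5-fold left 1412 genes within it, and 122 and 130 back. The replicate block gave 6597 calls, of which 5656 were also called without it, 5233 calls for the siRNA alone against 4175 without it, and 14 genes opposite to the siRNA. Whether numbers pair the libraries was not settled: deviations from group means correlated above 0.1 in 8 of 12 same-numbered pairs (-0.393 to 0.448), and control replicate 1 correlated best with replicate 2 of both treatments (0.525). In a group of 2 libraries the deviations mirror each other, so control replicate 3 had -0.525 with that library. The 12 pairs are thus not separate checks, and their count cannot decide the pairing. Rpl5 turned to -0.02 with the GC trend removed, with or without the block. The causes were not tested. With 2 control libraries, control replicate 1 alone moved several counts by over 1.5 times.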
